A study of Mus musculus with 31 samples.

Results

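The activator protein-1 (AP-1) family was represented by 9 genes, Fos, Fosb, Fosl1, Fosl2, Jun, Junb, Jund, Batf and Atf3, of the 48881 gene identifiers in each of 2 raw-count tables. The family was picked with earlier results of these data known, its members were found by matching these symbols to the tables' Ensembl identifiers with no threshold on their values, and all 9 were found in both tables. Messenger RNA was measured by RNA-seq in 31 mouse libraries (C57BL/6 per the labels), which examined what happens to thymocytes when the E proteins E2A (encoded by Tcf3) and HEB (encoded by Tcf12) are lost. In the first set, DN1 thymocytes (the earliest CD4-CD8- thymic progenitors) and DN3 thymocytes (committed to the T lineage) were grown on OP9-DL1 cells, a mouse stromal line that presents a Notch ligand, with stem cell factor and the interleukins IL-7 and IL-2. All cultures, controls included, carried R26-CreERT2 (a tamoxifen-inducible Cre expressed from the ROSA26 locus) and R26-stop-tdTomato (a fluorescent reporter of Cre activity). The floxed cultures also carried E2Af/f HEBf/f, and the control cultures lacked the floxed alleles. Libraries were made on day 4, before 4-hydroxytamoxifen and without sorting, and on days 5 and 7 from sorted tdTomato+ cells. The series text places the tamoxifen on day 4, while the labels of the DN1 day 7 libraries read day 7. Each of the 12 culture groups held 2 libraries, called a and b in floxed cultures and c and d in controls.

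In the second set, group 2 innate lymphoid cells (ILC2), tissue lymphocytes that make type 2 cytokines, came directly from mice. Those called dKO came from plck-Cre; E2Af/f HEBf/f mice, with 2 libraries from thymus and 2 from lung. The proximal Lck promoter (plck) is active in developing T cells, so Cre expression in these mice was directed to that lineage. The Id1 group held 3 libraries of lung ILC2 from mice carrying a plck-driven transgene of Id1, an inhibitor of E proteins. The genotype entries of Id1 libraries 2 and 3 read plck-Id2 and plck-Id3, and the group was taken from the titles. No wild-type ILC2 library was analysed here. Nothing in the labels says that replicates came from separate animals or cultures, so p-values measure the spread between these libraries only.

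AP-1 is a dimer of basic leucine zipper proteins. Fos proteins (Fos, Fosb, Fosl1, Fosl2) cannot pair with each other and bind DNA with a Jun partner, whereas Jun proteins (Jun, Junb, Jund) can also pair among themselves. Fos, Fosb, Jun and Junb are immediate early genes, switched on within minutes by mitogen-activated protein kinase and calcium signals, among them those of the T cell receptor and of cytokine or alarmin receptors. In lymphocytes AP-1 binds composite sites with NFAT factors, and Batf, a small family member without an activation domain of its own, binds with Jun proteins and IRF4. E proteins bind CANNTG motifs (E-boxes) and are held inactive by Id proteins.

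The proximal promoters of the 4 immediate early members are shown, because the study deletes 2 factors that bind E-boxes and these are the members that signals switch on first. Each is the 250 bases upstream of the start of the RefSeq transcript, taken from RefSeq sequence on GRCm38 (mm10), and written 5′ to 3′ on the gene's strand. Capitals mark TGACG, the core of the cAMP response element, and the E-boxes CAGCTG and CAGGTG, searched on both strands. The windows are chr12:85473640-85473889 (plus strand) for Fos, chr7:19310046-19310295 (minus strand) for Fosb, chr4:95052223-95052472 (minus strand) for Jun and chr8:84978749-84978998 (minus strand) for Junb.
Fos: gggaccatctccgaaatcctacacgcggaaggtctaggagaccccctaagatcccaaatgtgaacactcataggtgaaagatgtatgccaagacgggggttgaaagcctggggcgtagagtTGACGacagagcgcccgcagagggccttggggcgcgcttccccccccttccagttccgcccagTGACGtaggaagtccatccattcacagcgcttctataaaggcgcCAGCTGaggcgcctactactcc
Fosb: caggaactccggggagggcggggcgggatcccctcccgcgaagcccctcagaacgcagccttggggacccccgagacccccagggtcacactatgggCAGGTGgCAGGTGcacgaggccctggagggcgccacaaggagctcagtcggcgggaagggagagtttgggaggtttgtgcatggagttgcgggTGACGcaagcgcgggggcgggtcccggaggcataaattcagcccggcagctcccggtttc
Jun: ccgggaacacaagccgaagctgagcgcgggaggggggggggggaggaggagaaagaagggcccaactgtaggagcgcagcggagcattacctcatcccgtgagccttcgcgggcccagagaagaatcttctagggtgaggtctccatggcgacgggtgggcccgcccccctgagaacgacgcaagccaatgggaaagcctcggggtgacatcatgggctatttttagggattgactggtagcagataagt
Junb: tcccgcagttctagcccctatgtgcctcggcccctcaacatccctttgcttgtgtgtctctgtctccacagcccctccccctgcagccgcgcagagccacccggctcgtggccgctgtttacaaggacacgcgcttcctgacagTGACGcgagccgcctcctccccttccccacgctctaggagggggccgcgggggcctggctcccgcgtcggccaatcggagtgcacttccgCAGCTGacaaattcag
In Fos, TGACG matches began 129 and 66 bases before the start, and CAGCTG lay 22 bases before it. Fosb had TGACG 60 bases and CAGGTG 153 and 146 bases before the start. Junb had TGACG 106 bases and CAGCTG 16 bases before the start, and Jun had none of the 3 motifs in this window. Among all 32851 promoter windows in the RefSeq table, 17.77% held TGACG, 13% CAGCTG and 17.22% CAGGTG. Of the 8 members with an entry (none for Fosl1), 5 held TGACG, 3 CAGCTG and 1 CAGGTG. For some of these members the RefSeq start was far from the gene start of the GENCODE M21 annotation. The distance was 671 bases for Fosl2, 1210 for Jund (counted for CAGCTG) and 34706 for Atf3 (counted for TGACG). The AP-1 site TGACTCA was in 4.463% of all windows and in 0 of these 8. A match describes letters in the window and is no evidence of binding.

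On mm10, per the GENCODE M21 annotation, Fos (ENSMUSG00000021250) lies at chr12:85473890-85477273 and Batf (ENSMUSG00000034266) at chr12:85686669-85709087, both on the plus strand. Fosb (ENSMUSG00000003545) lies at chr7:19302696-19310051, Jun (ENSMUSG00000052684) at chr4:95049034-95052222 and Junb (ENSMUSG00000052837) at chr8:84974484-84978718, all on the minus strand. Fosl2 (ENSMUSG00000029135) lies at chr5:32135801-32157842, Fosl1 (ENSMUSG00000024912) at chr19:5447547-5455946 and Jund (ENSMUSG00000071076) at chr8:70698949-70700616, all on the plus strand. Atf3 (ENSMUSG00000026628) lies at chr1:191170296-191218039 on the minus strand. Exons of Fosl1 share 1163 bases with Ccdc85b on the other strand, and Jund shares 877 bases with the antisense gene Gm11175. Jun shares 232 bases with Junos and Junb 173 bases with Prdx2, each on the other strand. Because the strand setting of the counting is not given in the sources used here, values of Fosl1 and Jund cannot be separated from those of these neighbours, and reads in the shorter shared stretches of Jun and Junb cannot be assigned either.

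Library totals were 5908459 to 10692186 counts in cultures, 4818443 and 5669876 in thymic ILC2, 3695522 and 5627406 in dKO lung ILC2, and 9671437 to 13065445 in Id1 lung ILC2. Summed levels of 10 stromal markers were 3023 to 13512 CPM (the count scaled to the library total) in the unsorted day 4 libraries and 196 to 512 CPM in the sorted libraries. On day 7 Tcf12 stood at 110 and 103 CPM in DN1 floxed cultures, against 273 and 285 CPM in controls, and at 165 and 146 CPM in DN3 floxed cultures, against 515 and 513 CPM in controls. These levels describe Tcf12 only, and those of Tcf3 are not given here. Xist was 588 to 1901 CPM in all floxed cultures, against 4.55 to 71.4 CPM in controls, so the genotype and the sex of the donors cannot be told apart. One library, DN1 floxed b of day 7, held 8667 CPM of 10 skeletal muscle genes, against 74.1 CPM in its partner and 9.70 to 10.2 CPM in the controls. The ILC2 marker Il1rl1, the IL-33 receptor, was at 144 and 385 CPM in thymic ILC2, at 2019 and 844 CPM in dKO lung and at 1229 to 1726 CPM in Id1 lung, and at most 1.08 CPM in the sorted cultures. The list of 10 ILC2 markers as a whole did not set thymic ILC2 apart from the floxed cultures. It summed to 823 to 1593 CPM in thymic ILC2, against 1580 to 1598 CPM in DN1 floxed and 1119 to 1333 CPM in DN3 floxed cultures of day 7. The 8 T lineage markers summed to 299 to 414 CPM in thymic ILC2, against 238 to 314 CPM in DN1 floxed and 819 to 855 CPM in DN3 floxed cultures of day 7. In bulk samples, fewer cells of a type and less RNA per cell cannot be told apart.

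Before tamoxifen, on day 4, no member passed the test between floxed and control cultures in DN1 or in DN3. Fos, the founding partner of Jun, stood at 314 and 337 CPM in DN1 floxed cultures, against 208 and 169 CPM in controls. In DN3 it stood at 161 and 51.6 CPM in floxed cultures, against 52.2 and 79.3 CPM in controls. For Fos the floxed libraries were above the controls in DN1, and the groups overlapped in DN3. Both floxed libraries were also above both controls for Fosb, Jun and Junb in each stage, Batf in DN1, and Fosl1 and Fosl2 in DN3. They were below both controls for Fosl2 in DN1 and Jund in DN3. For Fosb in DN1 the gap was small, with the lower floxed library at 109 CPM and the higher control at 108 CPM. The share of all genes whose groups were separate on day 4 was not counted, so these separations are only a description. Jun was at 261 and 264 CPM in DN1 floxed cultures, against 234 and 169 CPM in controls, and at 120 and 75.1 CPM in DN3 floxed cultures, against 60.4 and 63.4 CPM in controls. Of the 8 members tested (Atf3 fell below the filter on low counts), 0 passed a false discovery rate (FDR) of 0.05 in DN1, where 0.105% of the 15172 genes tested passed in either direction, and 0 in DN3, where 0.442% passed (edgeR quasi-likelihood test, Benjamini-Hochberg adjustment over all genes). At an unadjusted p under 0.05 the count was 0 in DN1 and 1 in DN3, and DESeq2 called 0 in both. The one gene was Jun in DN3 (log2 difference 0.67 ± 0.21 standard error, adjusted p 0.299). Log2 differences in DN1 were 0.78 ± 0.46 for Fos and 0.56 ± 0.47 for Fosb, and in DN3 they were 0.70 ± 0.48 for Fos and 0.83 ± 0.50 for Fosb. In DN1 Jun was at 0.38, Junb at 0.30, Batf at 0.28, Fosl1 at 0.22, Jund at 0.18 and Fosl2 at -0.08. In DN3 Fosl1 was at 1.09, Fosl2 at 0.38, Junb at 0.26, Jund at -0.05 and Batf at -0.18. A fit to the 4 DN1 day 4 libraries alone called Fos (adjusted p 0.0088). Without the filter on low counts, edgeR called Fos (adjusted p 1.05e-05) and Fosb (0.0461) in DN1. In DN3 it then called Fos (adjusted p 0.00151), Fosb (0.000747) and Jun (0.00795), all of them higher in floxed cultures before tamoxifen. Stromal markers on day 4 summed to 9792 to 11143 CPM in DN1 floxed cultures, against 12688 to 13512 CPM in controls, and to 4489 to 5010 CPM in DN3 floxed cultures, against 3023 to 3277 CPM in controls. The genotypes were separate in both stages, lower in floxed DN1 and higher in floxed DN3, and the part of the stroma in these levels was not tested.

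**Figure D1:**
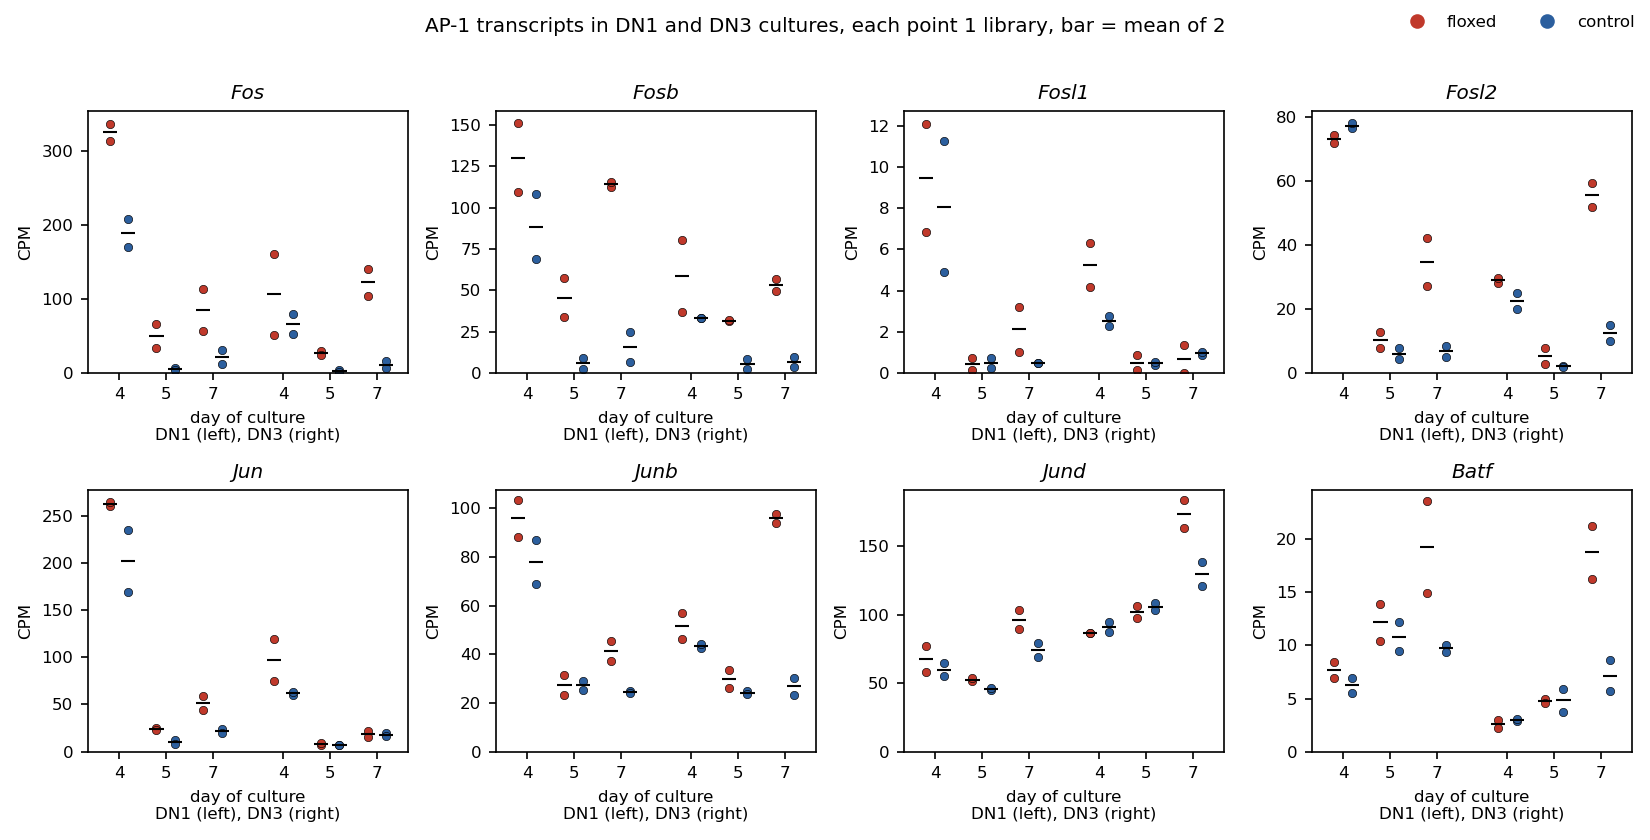
Levels of 8 AP-1 genes in the 24 culture libraries, in CPM on a linear axis against day, DN1 to the left of DN3 in each panel, with floxed cultures in red and controls in blue (each point is 1 library; Atf3, at most 1.4 CPM, is not drawn). On days 5 and 7 every floxed library lay above both controls for Fos and Fosb, while Jund in DN3 overlapped on day 5.

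On day 5, in sorted tdTomato+ cells, Fos and Fosb were higher in floxed cultures of both stages and Jun was higher in DN1. Fosl1, Fosl2, Junb, Jund and Batf did not pass the test in either stage. Fos was at 33.0 and 66.3 CPM in DN1 floxed cultures, against 6.82 and 3.55 CPM in controls. In DN3 it was at 29.0 and 24.7 CPM in floxed cultures, against 3.36 and 1.21 CPM in controls. Both floxed libraries exceeded both controls in each stage, and the log2 differences were 3.25 ± 0.62 (adjusted p 0.00346, edgeR) in DN1 and 3.47 ± 0.72 (adjusted p 0.00411) in DN3. Fosb, a Fos paralogue, was at 33.6 and 57.5 CPM in DN1 floxed cultures, against 9.05 and 2.41 CPM in controls (log2 difference 3.0 ± 0.61, adjusted p 0.00562 by edgeR). In DN3 Fosb was at 31.1 and 31.7 CPM in floxed cultures, against 8.28 and 2.42 CPM in controls (2.47 ± 0.61, adjusted p 0.0139). Again no floxed library overlapped a control.

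Jun, the prototype Jun protein, was at 24.8 and 22.5 CPM in DN1 floxed cultures on day 5, against 12.6 and 7.98 CPM in controls (log2 difference 1.18 ± 0.25, adjusted p 0.00792 by edgeR). In DN3 it was at 6.94 and 8.67 CPM in floxed cultures, against 6.60 and 7.00 CPM in controls, which overlap. Of 8 members, 3 rose in DN1, where 2.56% of all genes tested rose, and 2 rose in DN3, where 4.56% rose. The median log2 difference of the 8 was 0.44 in DN1 and 0.19 in DN3, against 0.0032 and 0.00 over all genes. On day 4, before tamoxifen, most members also had log2 differences above 0, so these medians do not measure a change since day 4. Fosl2 in DN3 stood at 2.6 and 7.68 CPM in floxed cultures, against 2.07 and 1.89 CPM in controls (1.31 ± 0.50, adjusted p 0.109 by edgeR and 0.0274 by DESeq2). Junb was at 23.3 and 31.3 CPM in DN1 floxed cultures, against 29.2 and 25.4 CPM in controls, and the groups overlapped. Its log2 difference was -0.03 ± 0.18, beside 0.16 ± 0.14 for Jund and 0.14 ± 0.27 for Batf in DN1. In DN1 the calls of Fos and Fosb were lost without floxed b (adjusted p 0.0686 and 0.0808) or control d (0.0884 and 0.13), and that of Jun without control d (0.172). In DN3 the Fos call was lost without control d (0.0703), and the Fosb call without floxed b (0.0764) or control d (0.155). Without control c the log2 differences were 4.20 for Fosb in DN1, and 4.40 for Fos and 3.64 for Fosb in DN3. Without control d that of Fosb was 2.30 in DN1 and 1.84 in DN3, and without floxed b that of Fos in DN1 was 2.65. Lineage markers moved on day 5 too. ILC2 markers summed to 388 to 716 CPM in DN1 floxed cultures, against 230.0 to 244 CPM in controls, and to 347 to 364 CPM in DN3 floxed cultures, against 159 to 184 CPM in controls. T lineage markers summed to 221 to 228 CPM in DN1 floxed cultures, against 345 to 354 CPM in controls, and to 1096 to 1173 CPM in DN3 floxed cultures, against 1738 to 1843 CPM in controls. Of the 8 T lineage genes, 4 fell in DN1 and 5 in DN3, and 0 rose. Of 7 mast cell and basophil markers, 5 were at 0 in each DN1 floxed library, and Cpa3, a carboxypeptidase of mast cells, carried the sum, at a mean of 323 CPM in DN1 floxed cultures, against 141 CPM in controls. The part of these marker differences in those of Fos, Fosb and Jun on day 5 was not tested.

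By day 7 the difference covered most of the family. In DN1, 7 of the 8 tested members were higher in floxed cultures, where 12.2% of the 15172 genes tested rose, and in DN3 6 of 8 were higher, where 12.9% rose. Leaving out 1 library gave 4 to 7 members in DN1, with 4 without control d, and 5 to 6 in DN3, while the genes called overall were 1705 to 5606 in DN1 and 2180 to 2932 in DN3. No member fell in either. The median log2 difference of the 8 was 1.66 in DN1 and 1.69 in DN3, against -8.3e-05 and -0.0087 over all genes.

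**Figure D2:**
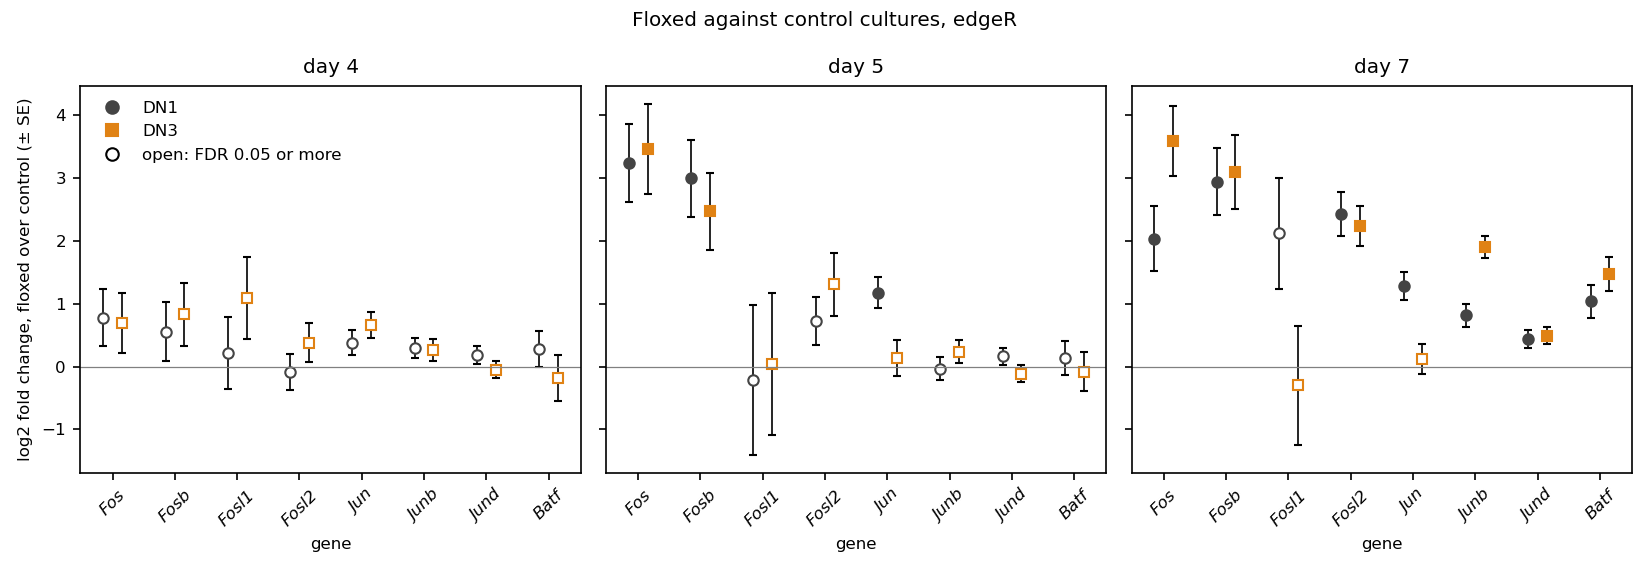
Log2 difference of floxed over control cultures for 8 AP-1 genes on days 4, 5 and 7, with DN1 as circles and DN3 as squares, bars for 1 standard error and open symbols where the adjusted p was 0.05 or more (edgeR). Fos and Fosb have filled symbols on days 5 and 7 in both stages, Fosl2, Junb, Jund and Batf on day 7 in both, and Jun on days 5 and 7 in DN1.

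Among the Fos proteins, Fos on day 7 was at 114 and 56.8 CPM in DN1 floxed cultures, against 30.7 and 12.4 CPM in controls, and at 141 and 104 CPM in DN3 floxed cultures, against 16.1 and 5.89 CPM in controls. The groups were separate in both stages, with log2 differences of 2.04 ± 0.51 (adjusted p 0.00753, edgeR) in DN1 and 3.59 ± 0.56 (adjusted p 8.68e-05) in DN3. Fosb was at 113 and 116 CPM in DN1 floxed cultures, against 24.5 and 6.37 CPM in controls, and at 56.7 and 49.4 CPM in DN3 floxed cultures, against 9.76 and 3.72 CPM in controls. Its log2 differences were 2.94 ± 0.53 (adjusted p 0.000536, edgeR) in DN1 and 3.10 ± 0.59 (adjusted p 0.000612) in DN3. For both genes control d was below control c in each stage, and single controls moved the sizes. In DN1 Fos differed by 1.52 without control d (adjusted p 0.114, edgeR) and by 2.83 without control c, and Fosb by 2.28 and 4.22. In DN3 Fos differed by 2.98 without control d and by 4.43 without control c, and Fosb by 2.49 and 3.89.

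Fosl2 (Fra-2), a Fos protein without the strong activation domain of Fos, was at 27.1 and 42.0 CPM in DN1 floxed cultures on day 7, against 8.37 and 4.99 CPM in controls. In DN3 it was at 51.8 and 59.2 CPM in floxed cultures, against 14.9 and 10.03 CPM in controls. The log2 differences were 2.43 ± 0.35 (adjusted p 5.52e-05, edgeR) and 2.24 ± 0.32 (adjusted p 4.13e-05), and both held when any 1 library was left out. Fosl1 (Fra-1), its close relative, was near the limit of detection, at 1.03 and 3.20 CPM in DN1 floxed cultures, against 0.485 and 0.499 CPM in controls (2.13 ± 0.88, adjusted p 0.0919 by edgeR). In DN3 the Fosl1 groups overlapped, at 0 and 1.35 CPM in floxed cultures, against 0.849 and 1.03 CPM in controls.

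Among the Jun proteins, Junb, which often opposes Jun on shared targets, was at 37.2 and 45.6 CPM in DN1 floxed cultures on day 7, against 25.0 and 24.1 CPM in controls (log2 difference 0.81 ± 0.18, adjusted p 0.0027 by edgeR). In DN3 it was at 97.7 and 93.9 CPM in floxed cultures, against 30.3 and 23.5 CPM in controls (1.91 ± 0.18, adjusted p 3.21e-07). Both groups were separate, and both calls held without any 1 library. Jun in DN1 was at 59.2 and 44.1 CPM in floxed cultures, against 24.02 and 20.2 CPM in controls (1.28 ± 0.22, adjusted p 0.000367, edgeR), and held without any 1 library. In DN3 Jun was at 21.5 and 15.97 CPM in floxed cultures, against 19.5 and 16.6 CPM in controls (0.11 ± 0.24, adjusted p 0.789). The DN3 groups overlapped.

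Jund, the Jun protein that most resting cells express, had the highest mean level per kilobase of exon of the 9 in sorted cells of both stages. On day 7 it was at 89.3 and 103 CPM in DN1 floxed cultures, against 79.0 and 69.2 CPM in controls (log2 difference 0.44 ± 0.14, adjusted p 0.0271 by edgeR). In DN3 it was at 163 and 184 CPM in floxed cultures, against 138 and 121 CPM in controls (0.49 ± 0.13, adjusted p 0.0109). The groups did not overlap, but the steps were small beside those of Fos. The DN1 call was lost without floxed b (0.257), control c (0.0523) or control d (0.206), and the DN3 call without floxed b (0.133) or control d (0.147).

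Batf, the IRF4 partner, was at 23.5 and 14.9 CPM in DN1 floxed cultures on day 7, against 10.1 and 9.36 CPM in controls (log2 difference 1.04 ± 0.26, adjusted p 0.00769 by edgeR). In DN3 it was at 16.2 and 21.3 CPM in floxed cultures, against 8.63 and 5.69 CPM in controls (1.48 ± 0.27, adjusted p 0.000454). All floxed libraries exceeded the controls. The DN1 call was lost without floxed a (0.0636) or control d (0.0687), while the DN3 call held without any 1 library. Atf3, a stress-induced member, had 0 to 15 counts in each culture library and was not tested there.

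Without floxed b of DN1 day 7, the library with muscle RNA, 6 of 8 members were still higher, all but Jund and Fosl1. A fit to the 4 DN1 day 7 libraries alone called 3 members, Fosb, Fosl2 and Jun. The cells also differed in lineage markers. ILC2 markers summed to 1580 to 1598 CPM in DN1 floxed cultures on day 7, against 311 to 351 CPM in controls, and to 1119 to 1333 CPM in DN3 floxed cultures, against 248 to 317 CPM in controls. Of the 8 tested, 5 rose and 0 fell in DN1, and 5 rose and 1 fell in DN3. T lineage markers summed to 238 to 314 CPM in DN1 floxed cultures, against 656 to 693 CPM in controls, and to 819 to 855 CPM in DN3 floxed cultures, against 2197 to 2202 CPM in controls. Of these 8, 5 fell in DN1 and 7 in DN3, and 0 rose. Myeloid markers summed to 46.0 to 66.0 CPM in DN1 floxed cultures on day 7, against 31.2 to 32.5 CPM in controls, and to 43.5 to 56.9 CPM in DN3 floxed cultures, against 18.6 to 19.0 CPM in controls. Of the 7 mast cell and basophil markers, 5 were at 0 in each DN3 floxed library, and Cpa3 averaged 54.9 CPM in DN3 floxed cultures, against 13.8 CPM in controls. The part of these marker differences in those of the AP-1 genes on day 7 was not tested. A list of 10 heat shock genes, which respond to cell handling, summed to 2974.8 to 2975.3 CPM in DN1 floxed cultures, against 3156 to 3235 CPM in controls. In DN3 the sums were 2333 to 2449 CPM in floxed cultures, against 2592 to 2615 CPM in controls. Of the 10, 0 passed edgeR in either stage on day 7, where 12.2% of all genes rose in DN1 and 12.9% in DN3. At an unadjusted p under 0.05 there were 3 in DN1 and 1 in DN3, and DESeq2 called 0. The part of cell handling in the AP-1 differences was not tested.

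To ask whether the difference grew after tamoxifen, the floxed-control difference on day 7 was tested against that on day 4. In DN1, 2 of 8 members grew, where 4.17% of all genes did, namely Fosl2 (change of the log2 difference 2.51 ± 0.45, adjusted p 0.00171 by edgeR) and Fosb (2.39 ± 0.70, adjusted p 0.0425). In DN3, 4 of 8 grew, where 6.02% of all genes did. These were Junb (1.64 ± 0.24, adjusted p 0.000234), Fosl2 (1.86 ± 0.45, adjusted p 0.00945), Fos (2.89 ± 0.72, adjusted p 0.0125) and Batf (1.66 ± 0.45, adjusted p 0.0208). Fosl2 in DN1 and Junb in DN3 held without any 1 library. Fosb in DN1 was lost without any of 6 of the 8 libraries, all 4 of day 4 and floxed b and control d of day 7 (0.0564 to 0.195), and by DESeq2 (0.109). In DN3 Fos was lost without day 4 floxed b (0.0509), day 4 control d (0.0616) or day 7 control d (0.102), Fosl2 without control d of day 4 (0.0513) or day 7 (0.0755), and Batf without any of 5 libraries (0.0569 to 0.104). Single libraries also moved 2 of these values, Fosb in DN1 to 1.71 without day 7 control d and 3.66 without day 7 control c, and Fos in DN3 to 2.28 and 3.74 without the same libraries of DN3, and to 2.29 and 3.91 without day 4 floxed b and a. The day 4 libraries were unsorted and rich in stroma and the day 7 libraries were sorted, so time and sorting cannot be told apart in this test. The stromal sums of day 4 also differed between genotypes, as given above, and their part in this change was not tested.

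Within the sorted cells, day 7 was set against day 5 in each genotype. In DN3 floxed cultures 6 of 8 members were higher on day 7 and 0 lower, where 24.5% of all genes differed in either direction, and every one of these calls held without any 1 library. They were Fosl2 (log2 difference 3.51 ± 0.36, adjusted p 6.97e-07 by edgeR, and 4.48 without floxed b of day 5), Fos (2.27 ± 0.51), Batf (2.06 ± 0.28), Junb (1.76 ± 0.17), Jun (1.33 ± 0.26) and Jund (0.85 ± 0.14). In DN3 controls 2 of 8 were higher and 0 lower, where 20.3% of all genes differed, namely Fosl2 (2.58 ± 0.45, adjusted p 0.000419) and Jun (1.35 ± 0.27, adjusted p 0.00124). These 2 of 8 are near the share of all genes. Fos in DN3 controls was at 16.1 and 5.89 CPM on day 7, against 3.36 and 1.21 CPM on day 5 (2.15 ± 0.79, adjusted p 0.0614 by edgeR). It passed by DESeq2 (0.0103), in a fit to these 4 libraries alone (0.00931), in a fit to the sorted libraries (0.03995) and without control d of day 7 (0.034). Whether the day 7 over day 5 difference of Fos depended on genotype was not tested. In DN1 floxed cultures 4 of 8 were higher and 0 lower, where 21.5% of all genes differed, namely Fosl2 (1.78 ± 0.34), Jun (1.13 ± 0.22), Jund (0.89 ± 0.14) and Junb (0.61 ± 0.18). Junb there was lost without floxed a of day 5 (adjusted p 0.216) or floxed b of day 7 (0.2), and a fit to these 4 libraries alone called 0 members. In DN1 controls 3 of 8 were higher and 0 lower, where 13.1% of all genes differed, namely Fos (1.99 ± 0.64), Jun (1.03 ± 0.25) and Jund (0.61 ± 0.14). Each of these was lost without 1 or more libraries, Fos without day 5 control c (0.109), day 5 control d (0.296) or day 7 control c (0.426, log2 difference 1.20), Jun without day 5 control d (0.171) or day 7 control c (0.0954), and Jund without control c of day 5 (0.0731) or day 7 (0.0941). Jun thus had higher levels on day 7 in all 4 settings, including the DN3 controls.

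The stages were then compared. The floxed-control difference on day 7 was larger in DN1 than in DN3 for Jun (difference of log2 differences 1.16 ± 0.33, adjusted p 0.0338, edgeR) and smaller for Junb (-1.09 ± 0.25, adjusted p 0.0103). These were 2 of 8 members, where 7.79% of all genes passed in either direction. The Jun value lost its call without any of 6 of the 8 libraries (0.0519 to 0.15), all but DN1 floxed b and DN3 floxed a, and the Junb value without DN3 control d (0.0801). A fit to these 8 libraries alone called 0 members (0.0663 for Jun and 0.0517 for Junb). Fos was -1.55 ± 0.74 (adjusted p 0.217). On day 5, 0 of 8 members passed edgeR, where 1.36% of all genes did, with 1 at an unadjusted p under 0.05 (Jun, 1.04 ± 0.39, adjusted p 0.232) and 0 by DESeq2. Between DN1 and DN3 controls on day 7, 1 of 8 members differed, where 22.6% of all genes did, a share below the background. That member was Jund (-0.82 ± 0.14, adjusted p 0.000194), at 79.0 and 69.2 CPM in DN1, against 138 and 121 CPM in DN3.

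Levels of different genes were compared as CPM per kilobase of exon, summed over the Fos genes and over the Jun genes. The length was that of all annotated exons joined, 6243 bases in Fosb and 9680 in Fosl2, against 3782 and 6537 in their longest transcripts. For Jun (3189 bases) and Jund (1668 bases) both lengths were the same, so the ratios of Fos to Jun sums depend on the length used. In DN1 on day 7 the Fos genes summed to 59.2 CPM per kilobase in floxed cultures, against 12.6 in controls (group means, n = 2 each), and the Jun genes to 91.9 in floxed cultures, against 62.0 in controls. In DN3 the Fos genes summed to 66.6 in floxed cultures, against 7.51 in controls, and the Jun genes to 152 in floxed cultures, against 95.1 in controls. The ratio of the sums was 0.509 to 0.791 in DN1 floxed libraries, against 0.121 to 0.275 in controls, and 0.378 to 0.505 in DN3 floxed libraries, against 0.0527 to 0.102 in controls. On day 5 it was 0.421 to 0.736 in DN1 floxed libraries, against 0.0673 to 0.119 in controls, and 0.211 to 0.240 in DN3 floxed libraries, against 0.0183 to 0.0407 in controls. The sorted controls were thus mostly Jun messages, chiefly Jund, and floxed libraries held a larger Fos part on both days. On day 4 the ratios were 1.01 to 1.07 in DN1 floxed libraries, against 0.782 to 0.816 in controls, and they overlapped in DN3, at 0.355 to 0.757 in floxed libraries, against 0.328 to 0.468 in controls. Jund, whose count may include its antisense neighbour, carried most of the Jun sum in sorted cells of both stages.

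**Figure D3:**
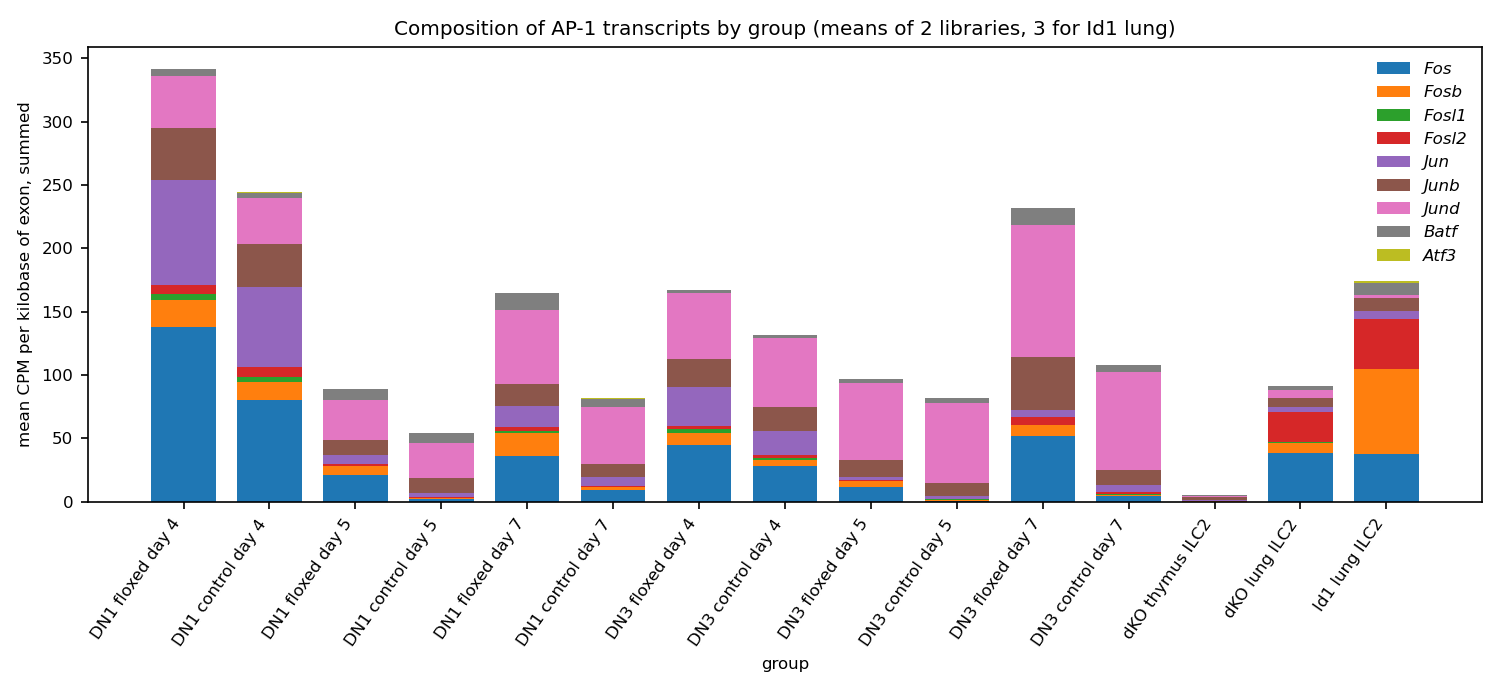
Mean level of each AP-1 gene in the 15 groups, stacked, in CPM per kilobase of exon (means of 2 libraries, 3 for Id1 lung). Jun genes filled most of the sorted control bars, floxed bars held a larger Fos part, thymic ILC2 were near 0, and lung ILC2 were mostly Fos genes.

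Other genes of the pathway were read from fixed lists, against the 12.2% of all 15172 genes that rose in DN1 and the 12.9% that rose in DN3 on day 7 (1564 genes fell in DN1 and 1816 in DN3). Of 16 tested immediate early genes outside AP-1, 5 rose and 1 fell in DN1 floxed cultures on day 7, and 8 rose and 1 fell in DN3. Without any 1 library, 4 to 6 rose in DN1 and 5 to 7 in DN3. Klf2, a regulator of lymphocyte migration, averaged 77.8 CPM in DN1 floxed cultures, against 18.3 CPM in controls (log2 difference 2.15 ± 0.34), and 235 CPM in DN3 floxed cultures, against 33.3 CPM in controls (2.89 ± 0.33). Dusp1, a phosphatase that switches off MAP kinases, averaged 119.7 CPM in DN1 floxed cultures, against 28.5 CPM in controls (2.13 ± 0.23), and differed by 1.78 ± 0.23 in DN3. Klf6 differed by 1.36 ± 0.19 in DN1 and 1.74 ± 0.20 in DN3, and Ier2 by 1.47 ± 0.16 in DN3. Zfp36, which destabilises short-lived messages, differed by 1.65 ± 0.37 in DN1 and lost its call without control d (adjusted p 0.0612, edgeR). On day 5 Klf6 was already higher in both stages (1.73 ± 0.20 in DN1 and 1.75 ± 0.20 in DN3), as were Dusp1 in DN1 (1.97 ± 0.24) and Klf2 in DN3 (2.36 ± 0.35). In all, 4 rose and 1 fell in DN1 on day 5, where 2.56% of all genes rose, and 3 rose and 1 fell in DN3, where 4.56% rose. Leaving out 1 library gave 2 to 4 that rose in DN1 and 2 to 3 in DN3.

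Of 21 MAP kinase and serum response genes that act upstream of AP-1, 6 rose and 2 fell in DN1 on day 7 (4 to 8 rose without any 1 library), where 12.2% of all genes rose, and 6 rose and 0 fell in DN3 (4 to 6), where 12.9% rose. The 2 of 21 that fell in DN1 are near the share of all genes that fell. Map3k8, a kinase that feeds the ERK pathway, averaged 85.3 CPM in DN1 floxed cultures, against 34.5 CPM in controls (log2 difference 1.37 ± 0.18), and 87.8 CPM in DN3 floxed cultures, against 33.1 CPM in controls (1.48 ± 0.18). Mapk8, which encodes the Jun kinase JNK1, differed by 0.997 ± 0.15 and Srf by 0.59 ± 0.12 in DN1, and Map2k1 by 1.06 ± 0.17 and Map2k4 by 0.76 ± 0.11 in DN3. Of 9 NFAT and IRF partners, 3 rose and 0 fell in DN1, and 3 rose and 1 fell in DN3, beside the same 12.2% and 12.9% of all genes. Irf4, the partner of Batf, averaged 14.5 CPM in DN1 floxed cultures, against 2.77 CPM in controls (2.44 ± 0.54), and 50.6 CPM in DN3 floxed cultures, against 8.44 CPM in controls (2.66 ± 0.47). The calcineurin subunit Ppp3ca differed by 0.78 ± 0.13 in DN1 and 1.32 ± 0.13 in DN3, Nfatc2 by 1.08 ± 0.18 and Irf8 by -1.08 ± 0.26 in DN3. The values of single genes in this paragraph held without any 1 library.

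Of 19 other leucine zipper genes, 7 rose and 2 fell in DN1 on day 7 (3 to 7 rose without any 1 library), and 6 rose and 2 fell in DN3 (2 to 4 rose). Beside the 12.2% and 12.9% of all genes that rose, the lowest counts without 1 library, 3 and 2 of 19, are near the background, as are the 2 that fell. Bach2, a repressor that competes with AP-1 for its sites, averaged 4.69 CPM in DN1 floxed cultures, against 33.4 CPM in controls (log2 difference -2.77 ± 0.30), and this difference was lower than that of DN3 by 2.55 on the log2 scale. Nfil3, needed for innate lymphoid development in mice, differed by 1.81 ± 0.34 in DN1 and 1.57 ± 0.31 in DN3. These Bach2 and Nfil3 values held without any 1 library. Of 9 Gadd45 and stress genes, 1 rose and 2 fell in DN1, and 1 rose and 1 fell in DN3, shares near those of all genes (12.2% and 12.9% rose), the one that rose being Gadd45g in both (1.75 ± 0.32 in DN1 and 2.05 ± 0.30 in DN3).

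Across the 24 culture libraries, the genes most like each member were ranked by Pearson's r of log2 CPM among 10457 genes with a mean of at least 5 CPM, as a description. Fos was most like Fosb (r 0.939), Fhl2 (0.921) and Arid5b (0.908), and Fosb was most like Dusp1 (0.943). Fosl2 was most like Pea15a (0.977), Mir22hg (0.972) and S100a6 (0.962), and Jun was most like Apbb2 (0.968), Dbn1 (0.966) and Myadm (0.963). Junb was most like Hspa5 (0.943), Jund like Foxo1 (0.956) and Batf like Tnfsf14 (0.941). Among members, r was 0.872 between Fos and Fosl2, 0.820 between Fos and Jun and -0.02 between Fos and Jund. The points share the stromal RNA of the day 4 libraries. Jun had its highest means on day 4 in both stages, Fos and Fosl2 did so in DN1, and in DN3 their highest means were those of floxed cultures on day 7.

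Thymic ILC2 from dKO mice had the lowest mean of the 15 groups for Fos, Fosb, Jun, Junb, Jund and Batf, although lung levels come from a separate table. Fos had 0 counts in both libraries, against 114 and 56.8 CPM in DN1 floxed and 141 and 104 CPM in DN3 floxed cultures of day 7. With a floor of 3 counts over the group, this was at least 299.9-fold lower than in DN1 and at least 421-fold lower than in DN3. Fosb was at 0 and 6.85 CPM, Fosl2 at 2.47 and 5.19 CPM, Jun at 0.705 and 0.830 CPM, Junb at 3.53 and 7.89 CPM, Jund at 1.23 and 2.28 CPM, Batf at 1.59 and 0.208 CPM and Atf3 at 0.353 and 0 CPM. Against the DN1 floxed cultures, 8 of 8 tested members were lower, where 40.1% of the 16391 genes tested were lower and 73.7% passed in either direction. Against the DN3 floxed cultures 7 of 8 were lower, where 38.8% of all genes were lower and 71.8% passed in either direction. The log2 differences from DN1 floxed were -5.31 ± 0.39 for Jun, -5.05 ± 0.24 for Jund, -4.43 ± 0.76 for Fosb, -3.56 ± 0.47 for Batf, -2.47 ± 0.41 for Fosl2 and -2.15 ± 0.25 for Junb (adjusted p 9.88e-08, edgeR). From DN3 floxed they were -5.92 for Jund, -3.86 for Jun, -3.55 for Batf, -3.38 for Junb, -3.34 for Fosb and -3.17 for Fosl2. Every one of these calls held without any 1 library, but single ILC2 libraries set the size for Fosb and Batf. Without thymic library 1, Fosb differed by -3.39 from DN1 floxed and -2.30 from DN3 floxed, and Batf by -5.80 and -5.78. Without thymic library 3, Batf differed by -2.65 and -2.64, and the ILC2 library left had 0 counts of Fosb. Fosl1 was at 0 counts in both ILC2 libraries, and its call against DN1 was lost without DN1 floxed b (0.0593), thymic library 1 (0.0512) or thymic library 3 (0.0533).

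These ILC2 came directly from mice and the cultures from OP9-DL1, so the cell type and its source cannot be told apart. The genes of these libraries also shifted with base composition, which was examined after the values were seen. Over 5 equal bins of genes by GC content of their longest transcript, the median log2 difference of thymic ILC2 over DN1 floxed was 1.31, 0.47, -0.24, -1.08 and -2.10, low to high GC. The share of genes called lower was 18.8%, 28.8%, 39.4%, 51.1% and 62.5%. All members lay in bins 4 and 5, with 51.9% GC in Fos, 53.1% in Fosl2, 62.6% in Junb and 67.1% in Jund. Junb at -2.15 was at the median of its bin, and Jun, Jund, Fosb and Batf were below it. Fosl2 at -2.47 was below the -1.08 of its bin. Against DN3 floxed the medians of bins 4 and 5 were -0.97 and -2.03, and Junb at -3.38 lay below its bin there, as did Jun, Jund, Fosb and Batf in bin 5 and Fosl2 at -3.17 in bin 4. The part of base composition in the members' differences was not tested. The median over all genes was -0.26 against DN1 and -0.20 against DN3 with TMM scaling, and 0.00 and 0.026 with relative log expression scaling, and the same members passed with either.

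**Figure D4:**
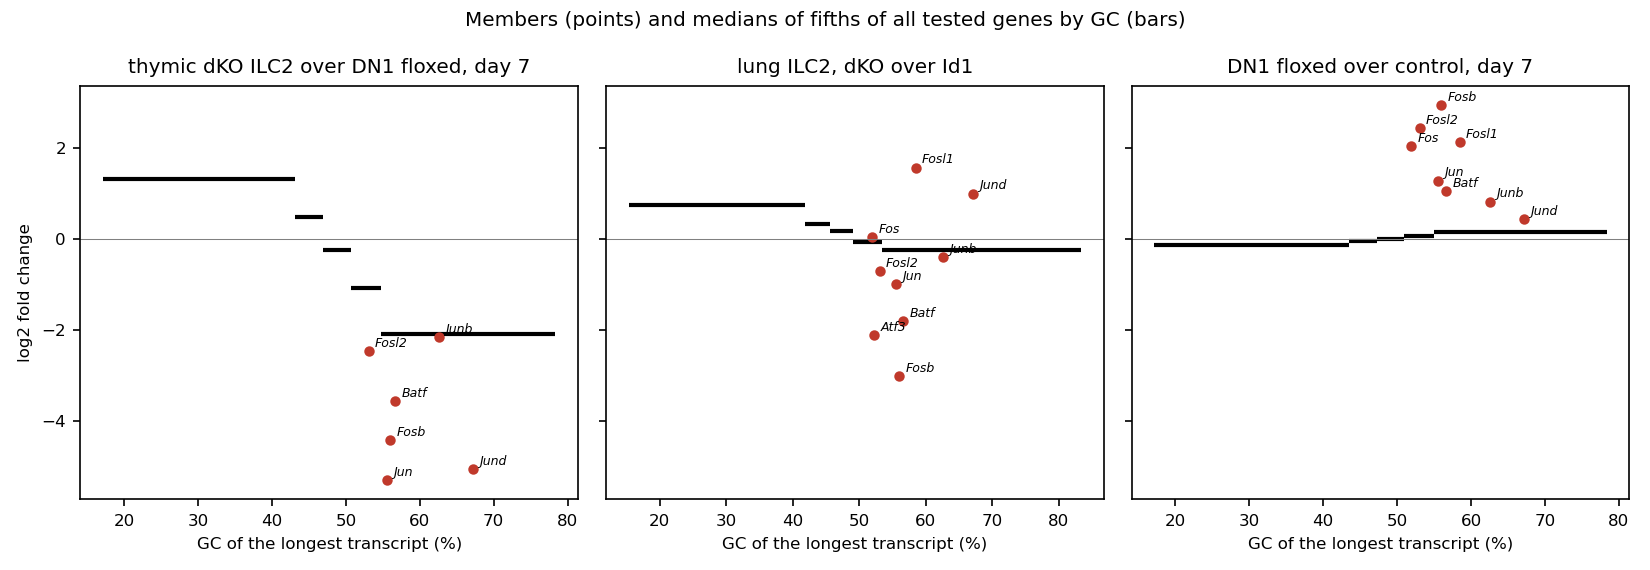
Log2 difference against GC content of the longest transcript (percent) in 3 comparisons, with AP-1 genes as points and bars for the median of all genes in each of 5 bins of GC content. In thymic dKO ILC2 over DN1 floxed day 7 the median was 1.31 in the bin with least GC and -2.10 in that with most. In lung ILC2, dKO over Id1, these medians were 0.74 and -0.24. Fos and Fosl1, at 0 counts in thymic ILC2, are not drawn in the thymic panel.

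In lung ILC2 the family was mostly Fos genes, and Fosb was the member that differed between dKO and Id1 mice. Fosb was at 54.9 and 41.7 CPM in dKO lung, against 374, 277 and 610 CPM in Id1 lung. Every Id1 library was above both dKO libraries, and the log2 difference was -3.02 ± 0.38 (adjusted p 0.00827, edgeR). It passed under every alternative tried, from -3.12 to -2.77 without any 1 library (adjusted p 0.0028 to 0.0361). This was 1 of 9 members tested, where 3.66% of the 19371 genes tested were lower and 18.1% passed in either direction. The 1 of 9 is above the share that was lower and below the share that passed in either direction. Fos, by contrast in level, was at 125 and 56.3 CPM in dKO lung, against 58.6, 84.1 and 121 CPM in Id1 lung (0.04 ± 0.39), and the groups overlapped. Sums of B cell and muscle markers also differed between the lung groups. The 6 B cell markers summed to 17.0 to 46.9 CPM in dKO lung, against 0.459 to 3.37 CPM in Id1 lung, and the 10 skeletal muscle markers to 84.1 to 138 CPM in dKO lung, against 17.8 to 28.5 CPM in Id1 lung. In this fit 1 of 4 tested B cell genes, 1 of 3 muscle genes and 2 of 9 stroma genes were higher in dKO lung. The 18.1% of all genes above covers both directions, and lists of 3 to 9 tested genes are too small to be set against a share. The sums of B cell and muscle markers did not overlap between the lung groups. The part of these markers in the Fosb difference was not tested. Lung genes shifted with base composition too. Over 5 bins of GC content the median log2 difference of dKO over Id1 was 0.74, 0.32, 0.18, -0.08 and -0.24, low to high GC. Fosb lay in bin 5, and the part of base composition in its difference was not tested.

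Fosl2 was at 355 and 105 CPM in dKO lung, against 484, 221 and 428 CPM in Id1 lung (log2 difference -0.72 ± 0.43, adjusted p 0.275 by edgeR). Jun was at 17.2 and 3.79 CPM in dKO lung, against 16.6, 21.5 and 21.5 CPM in Id1 lung (-1.002 ± 0.64), and Junb at 14.2 and 20.0 CPM in dKO lung, against 15.8, 32.2 and 22.5 CPM in Id1 lung (-0.41 ± 0.58). Jund was at 17.4 and 3.25 CPM in dKO lung, against 4.06, 5.48 and 4.80 CPM in Id1 lung (0.99 ± 0.89). The dKO libraries were far apart from each other for Fosl2, Jun and Jund. Batf was at 7.29 and 1.08 CPM in dKO lung, against 7.35, 17.8 and 15.1 CPM in Id1 lung (-1.80 ± 0.90, adjusted p 0.192). Atf3 had 4 and 2 counts in dKO lung, against 56, 19 and 28 counts in Id1 lung (-2.12 ± 1.32, adjusted p 0.298), separate groups at low depth. Fosl1 was at 4.62 and 0 CPM in dKO lung, against 1.68, 0.103 and 0.444 CPM in Id1 lung.

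**Figure D5:**
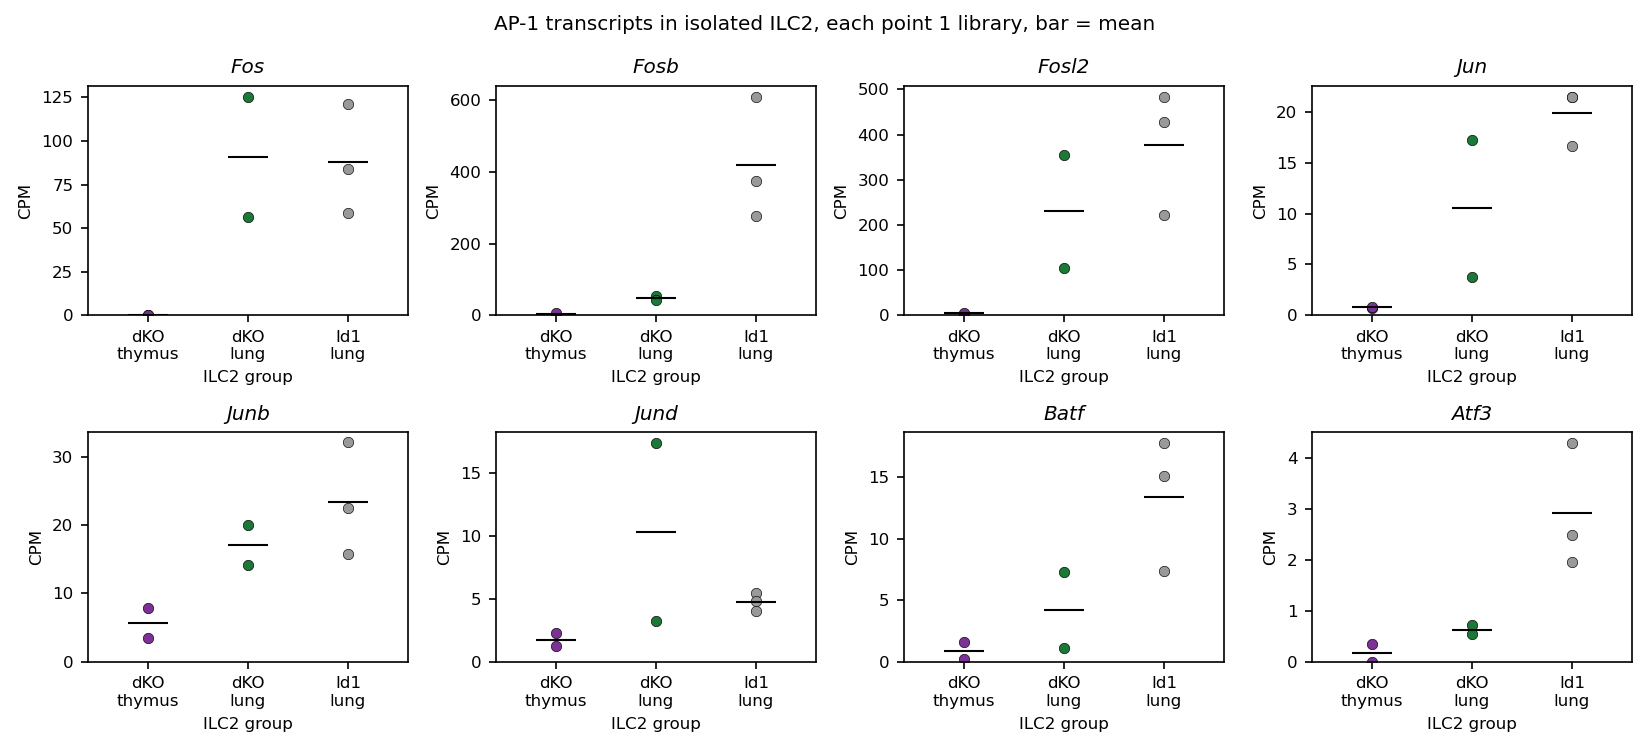
Levels of 8 AP-1 genes, in CPM on linear axes, in ILC2 of dKO thymus, dKO lung and Id1 lung (each point is 1 library; Fosl1 is not drawn). Fosb in dKO lung lay below all 3 Id1 libraries, and thymic ILC2 lay below both lung groups for each gene drawn but Batf, whose higher thymic library (1.59 CPM) exceeded the lower dKO lung library (1.08 CPM). For Atf3 the separation from dKO lung is near the floor, with 2 and 0 counts in thymus against 4 and 2 counts in dKO lung.

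Per kilobase of exon, the Fos genes of lung ILC2 summed to 71.2 CPM in dKO, against 144 CPM in Id1 (group means), and the Jun genes to 16.9 CPM in dKO, against 19.3 CPM in Id1. The ratio of Fos to Jun sums was 3.50 to 4.59 in dKO lung, against 4.29 to 9.99 in Id1 lung. It was 0.102 to 0.323 in thymic ILC2, where both sums were small (0.944 CPM per kilobase for Fos genes and 3.78 for Jun genes). The lung and thymus tables were counted as separate tables, so these levels were set side by side without a test. Junb (62.6% GC) and Jund (67.1%) are richer in GC than Fos (51.9%) and Fosl2 (53.1%). The part of base composition in the ratios of Fos to Jun sums was not tested. The lung fit spread was wide (biological coefficient of variation 0.706, against 0.138 in cultures), and the number of genes called was 3499, or 166 to 3513 without any 1 library. Over all lung genes the median log2 difference was 0.16 with TMM and 0.38 with relative log expression scaling, where Fosb stood at -2.79.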

How the data were processed

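Total RNA was sequenced on Illumina libraries. The authors deposited raw counts per Ensembl gene in a thymus and a lung table, and per the submitters' processing notes mm10 and DESeq2 were used. No source used here gives the aligner, the counter, its annotation or its strand setting. Symbols came from GENCODE M21, which held 48664 of 48881 identifiers. The 9 members, the other gene lists and the tests were chosen with earlier results of these data known.

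CPM is the count over the library total. Tests used edgeR 4.0.16 (TMM scaling, filterByExpr with a minimum count of 10, quasi-likelihood test, Benjamini-Hochberg over all genes, FDR 0.05), with the standard error as the log2 difference over the square root of F. One fit held the 24 culture libraries (15172 genes), one all 26 of the thymus table (16391 genes) and one the 5 of the lung table (19371 genes). Groups held 2 or 3 libraries, and total counts of 3695522 to 13065445 set the precision at low counts. The code was tested on simulated counts. DESeq2 1.42.0, relative log expression scaling, no filter, fits to fewer libraries, a replicate block and leaving out each library were alternatives. All 9 members are named. From the other lists, genes came from the up to 4 with the largest difference among those that passed with separate groups, and those lost without 1 library were mostly left out. The GC comparison was added after the values were seen.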

Additional observations from a re-analysis of the deposited data

Results flagged for a closer look

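The floxed-control difference changed between day 4 and day 7 past the threshold for 2 genes in DN1, by 2.51 for Fosl2 and 2.39 for Fosb on the log2 scale. In DN3 it changed for 4, by 2.89 for Fos, 1.86 for Fosl2, 1.66 for Batf and 1.64 for Junb. Fosl2 in DN1 and Junb in DN3 kept their calls without any 1 library, and Fosb in DN1 lost its call without any of 6 of the 8 libraries. The day 4 libraries were unsorted, with 3023 to 13512 CPM of stromal markers, and the sums differed between genotypes without overlap in both stages. The part of the stroma was not tested.

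On day 7 the floxed-control difference differed between DN1 and DN3 for Jun (1.16 on the log2 scale, larger in DN1) and for Junb (-1.09, smaller in DN1). Jun lost its call without any of 6 of the 8 libraries and Junb without DN3 control d (adjusted p 0.0801, edgeR). A fit to these 8 libraries alone called neither (0.0663 for Jun and 0.0517 for Junb).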

How the results depend on the processing

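No member's called difference reversed. Of 1493 recomputed values, 1322 kept their side of the threshold and direction, 63 lost it, 49 gained it and 59 that had not passed changed sign. Relative log expression scaling changed none of 145 values, and DESeq2 left 141 of 145 as they were. Only the larger moves in the count of members past the threshold are listed. Without the filter the members past the threshold were 2 in DN1 and 3 in DN3 on day 4, 4 for the DN1 change from day 4 to 7, 1 for the stage difference on day 5, 7 for DN1 floxed day 7 over day 5 and 4 for DN1 over DN3 controls. Smaller gains without the filter included Fosl1 in DN1 on day 7, Fosl2 in DN3 on day 5, Fos in the day 7 stage difference, and Fosb and Jund in the DN3 change. Fits to the compared groups alone gave 1 in DN1 on day 4, 3 in DN1 on day 7, 1 for the DN1 change, 0 for the stage difference on day 7, 0 for DN1 floxed day 7 over day 5 and 2 for DN1 over DN3 controls. Smaller gains in these fits included Fosb and Jund in the DN3 change. The causes were not tested.

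Leaving out 1 library gave 0 to 3 members in DN1 and 0 to 3 in DN3 on day 5, 4 to 7 in DN1 and 5 to 6 in DN3 on day 7, and 0 to 0 on day 4. The change from day 4 gave 1 to 2 in DN1 and 1 to 5 in DN3, and the stage difference 0 to 0 on day 5 and 0 to 2 on day 7. Day 7 over day 5 gave 3 to 5 in DN1 floxed, 0 to 3 in DN1 control, 6 to 6 in DN3 floxed and 2 to 3 in DN3 control. Thymic ILC2 gave 7 to 8 against either culture, lung 1 to 1 and DN1 over DN3 controls 1 to 2. All genes called were 3412 in DN1 on day 7 (1705 to 5606) and 3775 in DN3 (2180 to 2932), 761 in DN1 on day 5 (228 to 715) and 1481 in DN3 (474 to 1214).

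Same-numbered libraries deviated together little (r across genes -0.118 to 0.135). Between days r was 0.118 to 0.135 in DN3 floxed cultures and below 0 in DN3 controls, so the replicate letter was not taken as pairing. With the replicate block, 123 of 129 values kept their call, 4 gained it (Fosb in the DN3 change from day 4, adjusted p 0.0118 in place of 0.0628, Jun in the DN1 change, 0.031, Fosb in DN1 floxed day 7 over day 5, 0.0161, and Fos in DN3 control day 7 over day 5, 0.0451), and members past the threshold were 3 for the DN1 change from day 4, 5 for the DN3 change, 5 for DN1 floxed day 7 over day 5 and 3 for DN3 control. Depth limited Atf3 and Fosl1, with few counts per library.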
